A study of Mus musculus and Sus scrofa with 18 samples.

Results

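Myelin and mature oligodendrocyte genes were followed across the striatum of wild-type and Huntington's disease (HD) knock-in mice, as 9 genes that mark this cell type, listed by symbol and matched to Ensembl identifiers among the 55357 genes of the mouse count table. They were Mbp (ENSMUSG00000041607, chromosome 18), Mobp (ENSMUSG00000032517, chromosome 9), Mal (ENSMUSG00000027375, chromosome 2), Cldn11 (ENSMUSG00000037625, chromosome 3), Mag (ENSMUSG00000036634, chromosome 7), Mog (ENSMUSG00000076439, chromosome 17), Opalin (ENSMUSG00000050121, chromosome 19), Cnp (ENSMUSG00000006782, chromosome 11) and Ugt8a (ENSMUSG00000032854, chromosome 3). All 9 passed the filter on low counts, which kept 19463 genes. The study asked whether silencing HTT RNA with CasRx, an RNA-cutting CRISPR enzyme, changes the brain of HD mice, and RNA of the striatum was sequenced from 3 mice in each of 3 groups. The HD mice were heterozygous HD 140Q-KI animals, whose own Htt gene carries human exon 1 with an expanded CAG repeat, and every mouse received adeno-associated virus (AAV9) in both striata at 6 months of age. WT mice received the AAV with a control guide RNA (AAV-Ctrl gRNA) and no CasRx, untreated HD mice received AAV-CasRx/Ctrl gRNA, and treated HD mice received AAV-CasRx/HTT gRNAs. CasRx was driven by the CAG promoter, which is active in many cell types, and which cells expressed it was not measured here. Effects of the HD allele and of the CasRx virus cannot be told apart where HD mice are set against WT mice.

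Oligodendrocytes wrap axons of the brain in myelin, a multilayered membrane that speeds the spread of the nerve impulse. Their precursors express Pdgfra and Cspg4, pass through a newly formed stage, and then switch on the genes of the mature myelin sheath under transcription factors such as Sox10 and Myrf. The striatum is crossed by bundles of myelinated fibres, so that myelin transcripts are abundant in it. In RNA of whole tissue, fewer oligodendrocytes and less RNA per oligodendrocyte cannot be told apart.

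For 8 of the 9 genes RefSeq gave a promoter (build GRCm38.p6). Those of Opalin and Mal, the members that passed the test between groups, and of Mobp, the next in order of significance among the lower members, are shown as the 250 bases before the transcription start, read 5′ to 3′ on the gene's strand. Capitals mark ACAAAG or its reverse complement CTTTGT, the core bound by SOX factors.
Opalin, chr19:41077114-41077363, minus strand: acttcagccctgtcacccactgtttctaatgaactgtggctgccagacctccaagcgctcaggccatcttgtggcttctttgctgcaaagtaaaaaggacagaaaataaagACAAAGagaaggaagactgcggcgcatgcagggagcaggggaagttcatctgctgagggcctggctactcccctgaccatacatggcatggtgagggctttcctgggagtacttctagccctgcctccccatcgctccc
Mal, chr2:127656696-127656945, minus strand: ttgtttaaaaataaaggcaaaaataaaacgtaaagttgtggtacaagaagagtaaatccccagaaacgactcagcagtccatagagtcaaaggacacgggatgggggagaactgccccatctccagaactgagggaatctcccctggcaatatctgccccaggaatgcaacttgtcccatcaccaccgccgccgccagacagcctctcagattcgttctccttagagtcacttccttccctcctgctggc
Mobp, chr9:120149492-120149741, plus strand: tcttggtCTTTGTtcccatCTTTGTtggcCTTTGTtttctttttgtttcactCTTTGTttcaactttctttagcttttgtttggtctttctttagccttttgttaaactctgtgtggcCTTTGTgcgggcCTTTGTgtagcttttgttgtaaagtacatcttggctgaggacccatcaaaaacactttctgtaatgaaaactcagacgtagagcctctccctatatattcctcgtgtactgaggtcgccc
The motif was searched on both strands and stood once in the Opalin window, with its first base at -139, 6 times in the Mobp window within a run of similar repeats, and not in the Mal window. It occurred in 16.46% of 32851 promoters of the same length. Among the other members with an entry, Mag and Cnp held 1 match each and Mog, Cldn11 and Ugt8a held 0. A match is a description of these letters only.

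Each library held 27184356 to 32102121 counts, and counts of single members ran from 419 (Opalin in WT 2) to 182902 (Mbp in treated 2). The 9 genes made up 0.637% to 1.01% of all counts. Values are given as CPM, the counts scaled to the size of each library with edgeR's TMM factors, numbered by group and replicate. Htt, the targeted gene, was at 189, 191 and 182 CPM in WT, 145, 140.4 and 149.6 CPM in untreated and 139.7, 130.5 and 136 CPM in treated mice. Every treated library lay below every untreated one, with a log2 fold change of -0.10 ± 0.06 (SE) that did not pass the test (adjusted p = 0.942, edgeR's quasi-likelihood test). Libraries differed in more than their group. Y-linked genes had 0 counts in 5 libraries (untreated 2 and 3 and all treated) and 3435 to 5005 in the other 4, so that this property and the group cannot be told apart between treated and WT mice. The summed level of 10 choroid plexus markers was 68.4, 3842 and 1241 CPM in WT 1 to 3, 38.1 to 190.0 CPM in the untreated and 40.8 to 1298 CPM in the treated libraries. That of 12 cortical excitatory neuron markers was 1495, 711 and 569.6 CPM in WT 1 to 3, 1793 to 2125 CPM in the untreated and 1256 to 1329 CPM in the treated libraries. Striatal projection neuron markers summed to 7317 to 9623 CPM in WT, 2412 to 2838 CPM in untreated and 3679.9 to 3744 CPM in treated mice, and none of these 13 genes was at 0 in any library.

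**Figure D1:**
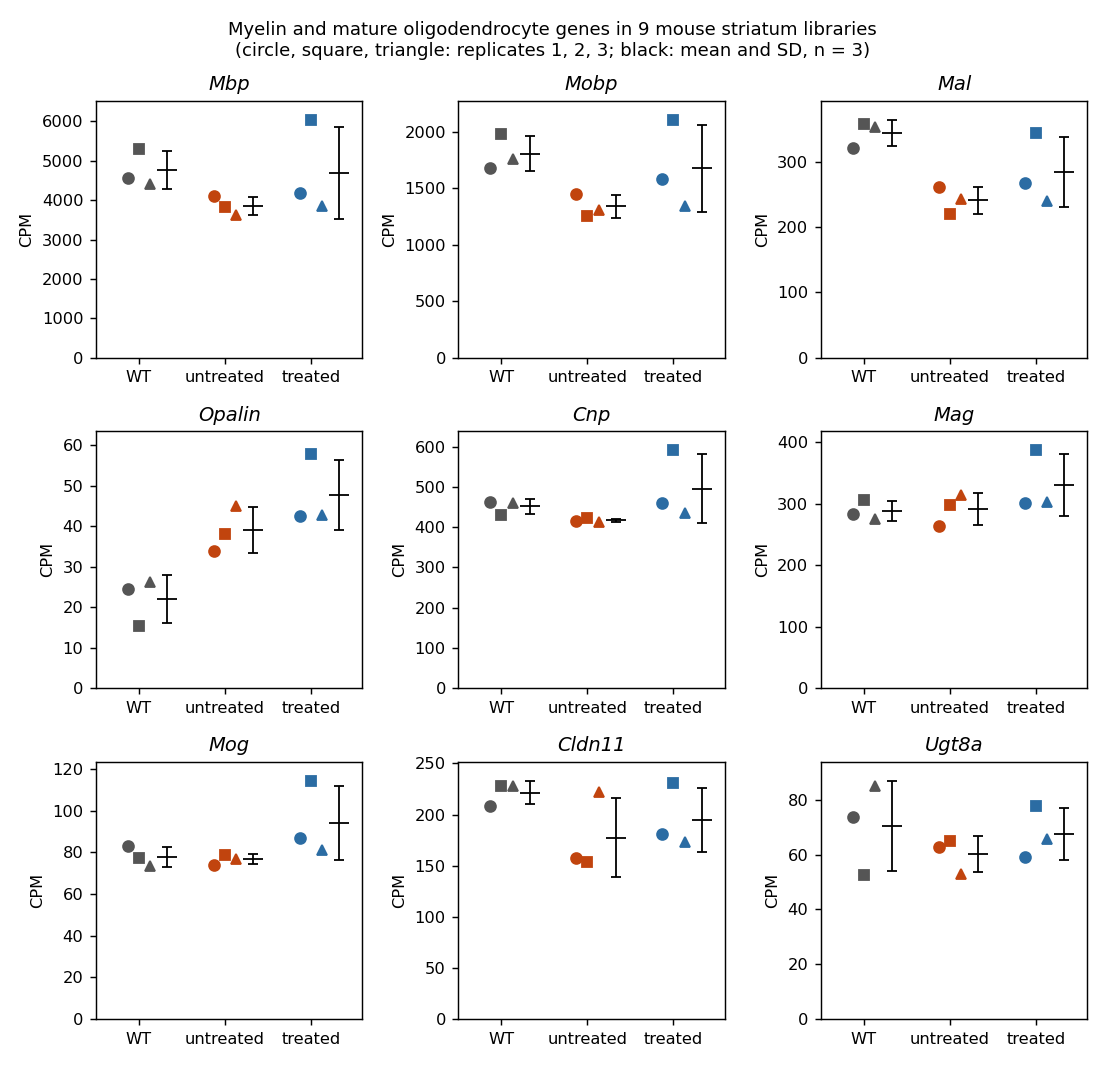
Level of each of the 9 genes in every library, in CPM on axes that start at 0. Circles, squares and triangles are replicates 1, 2 and 3 of each group, and black bars give the mean and SD of 3 mice; Opalin is lowest in WT, Mal is highest in WT against untreated, and replicate 2 is the highest treated library in all 9 panels.

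Between untreated HD and WT mice, Opalin was 1.77-fold higher and Mal fell by 29.9%, and the other 7 members did not pass the test. Opalin is a transmembrane glycoprotein confined to oligodendrocytes of the central nervous system, and Mal is a lipid-raft proteolipid that sorts myelin proteins to the sheath. With 2 of 9 members past an adjusted p of 0.05 by edgeR's quasi-likelihood test, Benjamini-Hochberg adjusted, the share was set beside 10.7% of all tested genes, 4.58% of them higher and 6.10% lower. The median log2 fold change of the 9 was -0.23, against 0.02 over all tested genes, and 7 of the 9 lay below 0 where 47.9% of all genes did. None met the rule for differentially expressed genes used in the study's results text (unadjusted P under 0.05 and at least a 2-fold change), which 8.16% of genes met. The study's methods give an unadjusted P under 0.01 instead, and with it the members that met the rule were 0 in untreated and 1 in treated mice against WT and 0 between the HD groups, the same numbers as with 0.05.

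Among proteins of compact myelin, Mbp, which holds the cytoplasmic faces of the membrane together, stood at 4560.4, 5301 and 4398 CPM in WT 1 to 3, at 4099.5, 3833 and 3622 CPM in untreated 1 to 3, and at 4187, 6026 and 3855 CPM in treated 1 to 3. All 3 untreated libraries lay below all WT libraries, while the treated group spanned both. The log2 fold change of untreated against WT mice was -0.30 ± 0.17 (SE), with an adjusted p of 0.259 by edgeR's quasi-likelihood test.

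Mobp, another small basic protein of compact myelin, was at 1679.7, 1979 and 1758 CPM in WT, 1451, 1257 and 1311 CPM in untreated and 1579, 2100.5 and 1345 CPM in treated mice, in replicate order. Again every untreated library was below every WT library. Its log2 fold change between these groups was -0.43 ± 0.15 (SE; 95% interval -0.78 to -0.09), with an adjusted p of 0.101 by edgeR's quasi-likelihood test and 0.0323 by DESeq2.

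Mal was at 321, 357 and 353 CPM in WT, 260.4, 219 and 242 CPM in untreated and 268, 344 and 240.4 CPM in treated mice. The untreated libraries were all below the WT libraries, and in the treated group only replicate 2 reached the WT range. The mean was 344 ± 19.96 CPM in WT and 241 ± 20.6 CPM in untreated mice (SD, n = 3), a log2 fold change of -0.51 ± 0.13 (SE; 95% interval -0.80 to -0.23; adjusted p = 0.0350, edgeR's quasi-likelihood test). This call depended on single libraries, since the adjusted p rose to 0.104 without WT 2, 0.0760 without WT 3, 0.104 without untreated 2, 0.0816 without untreated 3 and 0.0606 without treated 1, with log2 fold changes of -0.58 to -0.46 over the 9 fits that each left out 1 library. With the Y-linked share of counts as a covariate the adjusted p was 0.212 and the log2 fold change -0.43.

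Cldn11, the claudin of the tight junctions between myelin layers, was at 209, 228 and 228 CPM in WT, 157, 153 and 222 CPM in untreated and 181, 230.5 and 173 CPM in treated mice. Untreated 3 lay within the WT range and set the overlap of these groups. The log2 fold change of -0.32 ± 0.15 (SE) had an adjusted p of 0.202 by edgeR's quasi-likelihood test, and without untreated 3 it was -0.51 with an adjusted p of 0.0480.

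Among proteins of the outer and axon-facing membranes, Mag, an adhesion molecule facing the axon, was at 283, 306 and 275 CPM in WT, 263, 297 and 314 CPM in untreated and 300.4, 387 and 303 CPM in treated mice. Mog, an immunoglobulin-domain protein of the outermost myelin surface, was at 82.9, 77.3 and 73.3 CPM in WT, 74.1, 78.8 and 76.7 CPM in untreated and 86.6, 114 and 81.0 CPM in treated mice. For both genes the WT and untreated libraries overlapped, and treated 2 was the highest of all 9. The untreated against WT log2 fold changes were 0.02 ± 0.11 for Mag (95% interval -0.24 to 0.27) and -0.02 ± 0.12 for Mog (SE; 95% interval -0.29 to 0.24).

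Opalin was at 24.6, 15.4 and 26.3 CPM in WT, 33.9, 38.1 and 45.1 CPM in untreated and 42.7, 57.8 and 42.9 CPM in treated mice. All 6 HD libraries lay above all WT libraries, and the untreated and treated libraries overlapped. The mean was 22.1 ± 5.86 CPM in WT and 39.0 ± 5.67 CPM in untreated mice (SD, n = 3), a log2 fold change of 0.82 ± 0.21 (SE; 95% interval 0.36 to 1.29; adjusted p = 0.0368, edgeR's quasi-likelihood test). The adjusted p was 0.0779 without WT 2, 0.0765 without untreated 2, 0.101 without untreated 3, 0.0570 without treated 1 and 0.0531 without treated 3, and the log2 fold change ran from 0.62 (without WT 2) to 0.97 (without WT 3). WT 2, where Opalin was lowest, was also the library with 3842 CPM of choroid plexus markers, and the part of that tissue in the result was not tested. With the Y-linked share as a covariate the log2 fold change was 0.72 with an adjusted p of 0.198.

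The enzymes among the members did not pass the test. Cnp, a phosphodiesterase of the cytoplasmic channels of myelin, was at 463, 430.3 and 461 CPM in WT, 415, 422 and 413 CPM in untreated and 460.2, 593 and 434 CPM in treated mice. The 3 untreated libraries lay close together below all WT libraries, and the log2 fold change was -0.12 ± 0.11 (SE; adjusted p = 0.532, edgeR's quasi-likelihood test). Ugt8a, which makes galactosylceramide, the main glycolipid of myelin, was at 73.7, 52.7 and 85.1 CPM in WT, 62.7, 65.1 and 52.8 CPM in untreated and 59.2, 77.7 and 65.8 CPM in treated mice, and its 3 groups overlapped. Reads of Cnp could include some of Dnajc7, which overlaps it on the opposite strand and had at most 6126 counts in a library, against at least 11723 for Cnp, since the strand setting of the counting was not stated.

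Of the 9 genes, 4 (Mbp, Mobp, Cnp and Mal) had all untreated libraries below all WT libraries, as did 15.1% of all genes, and Opalin was the only member with all of them above, as were 15.0% of genes. For 3 mice against 3 a two-sided exact permutation test cannot give a p below 0.1, which is the value for each of these 5 genes.

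**Figure D2:**
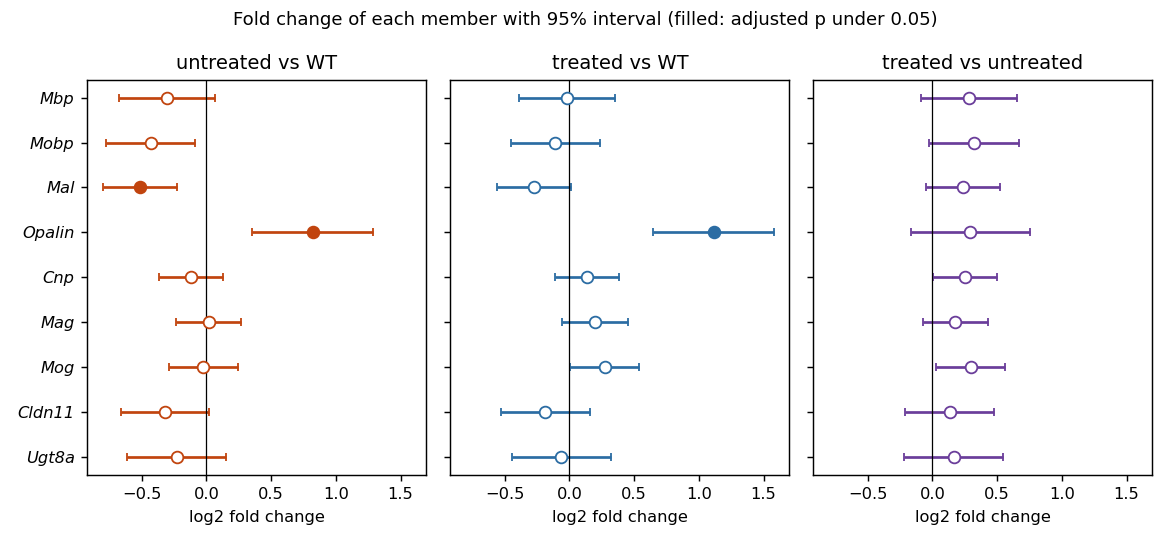
Log2 fold change of each member with its 95% interval in the 3 comparisons, from edgeR's quasi-likelihood fit of all 9 libraries. Filled points passed an adjusted p of 0.05: Mal (-0.51) and Opalin (0.82) in untreated against WT mice, Opalin alone (1.11) in treated against WT mice, and no member in treated against untreated mice.

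Between treated HD and WT mice, Opalin was the only member that passed the test, at 2.16-fold of WT. Its mean was 47.8 ± 8.64 CPM in treated mice (SD, n = 3), and the log2 fold change was 1.11 ± 0.21 (SE; 95% interval 0.65 to 1.58; adjusted p = 0.0224, edgeR's quasi-likelihood test). This was 1 of 9 members beside 3.69% of all genes called, 0.904% of them higher, and Opalin was also the 1 member that met the rule for differentially expressed genes, which 5.22% of genes met. The call was lost without treated 1 (adjusted p = 0.0596), treated 2 (0.101) or treated 3 (0.0558) by edgeR's quasi-likelihood test, with log2 fold changes of 0.92 (without WT 2) to 1.27 (without WT 3), so that the 2-fold rule was missed without WT 2 and without treated 2 (0.96). DESeq2 gave adjusted p-values of 0.00125 for untreated and 5.45e-06 for treated mice against WT, and with the Y-linked share as a covariate the treated against WT value was 0.96 with an adjusted p of 0.455. Both comparisons share the WT libraries and are not independent of each other.

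The other 8 members differed from WT by log2 fold changes of -0.27 to 0.27 in treated mice, with adjusted p-values of 0.224 or more by edgeR's quasi-likelihood test. The ends of that range were Mal, at -0.27 ± 0.13 (SE; 95% interval -0.56 to 0.01), and Mog, at 0.27 ± 0.12 (SE; 95% interval 0.01 to 0.54). The median over the 9 was -0.02 and that over all genes 0.0038. Only Opalin had groups that did not overlap, which was so for 28.6% of all genes.

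Between treated and untreated HD mice, which carried the same allele and CasRx virus and received different guide RNAs, no member passed the test, as no gene did (0% of 19463), and the smallest adjusted p among the members was 0.887 by edgeR's quasi-likelihood test. All 9 log2 fold changes nevertheless lay above 0, from 0.13 for Cldn11 to 0.32 for Mobp, where 46.3% of all genes did. Their median was 0.25, a 1.19-fold difference for Cnp, the gene at the median, against -0.01 over all genes. Mog (0.30 ± 0.12, SE) and Cnp (0.25 ± 0.11, SE) had an unadjusted P under 0.05, as did 5.50% of all genes, and the treated libraries of both lay above all untreated libraries, as in 6.92% of genes. The 95% intervals of the other 7 members included 0 and reached 0.43 for Mag to 0.75 for Opalin, so that differences of that size were not excluded by these 3 mice a group. With DESeq2, 0 members passed an adjusted p of 0.05 as well. The rule for differentially expressed genes was met by 0 members and by 0.771% of genes.

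The 9 genes moved with 1 library. All of them had their highest treated value in treated 2, which was the highest of its group in 33.5% of all genes, and 7 of the 9 had the highest value of all 9 libraries there, against 7.53% of all genes. The median gap between treated 2 and the mean of the other 2 treated libraries was 0.43 on the log2 scale, or 1.35-fold, with a range of 0.32 to 0.58 over the members and a median near 0 over all genes. Of 43 further mature oligodendrocyte and myelin genes, 38 were also highest of the group in treated 2. Without treated 2 the median log2 fold change of treated against untreated mice was 0.08, with values from 0.0022 for Cldn11 to 0.14 for Opalin, all above 0, and an adjusted p of 1.00 for each by edgeR's quasi-likelihood test.

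The marker sums of other cells in the same libraries differed in order. Oligodendrocyte precursor genes summed to 302, 293 and 296 CPM in treated 1 to 3, and striatal projection neuron markers to 3742, 3679.9 and 3744 CPM. Astrocyte markers, of which Slc1a2 made up 2158 to 2358 CPM, summed to 4315, 4765 and 4262 CPM, and choroid plexus markers to 246, 40.8 and 1298 CPM. Treated 2 was thus the highest treated library for the astrocyte list and the lowest for the other 3 lists. The precursor and projection neuron sums lay close together. Treated 2 was also highest for newly formed oligodendrocyte genes (535, 688 and 513 CPM) and lineage transcription factors (631, 751 and 618 CPM). It was neither highest nor lowest for microglia (654, 846 and 919.8 CPM), cortical excitatory neuron (1329, 1273 and 1256 CPM) and endothelial markers (374, 369 and 350 CPM). The part of tissue composition in the member values was not tested.

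**Figure D3:**
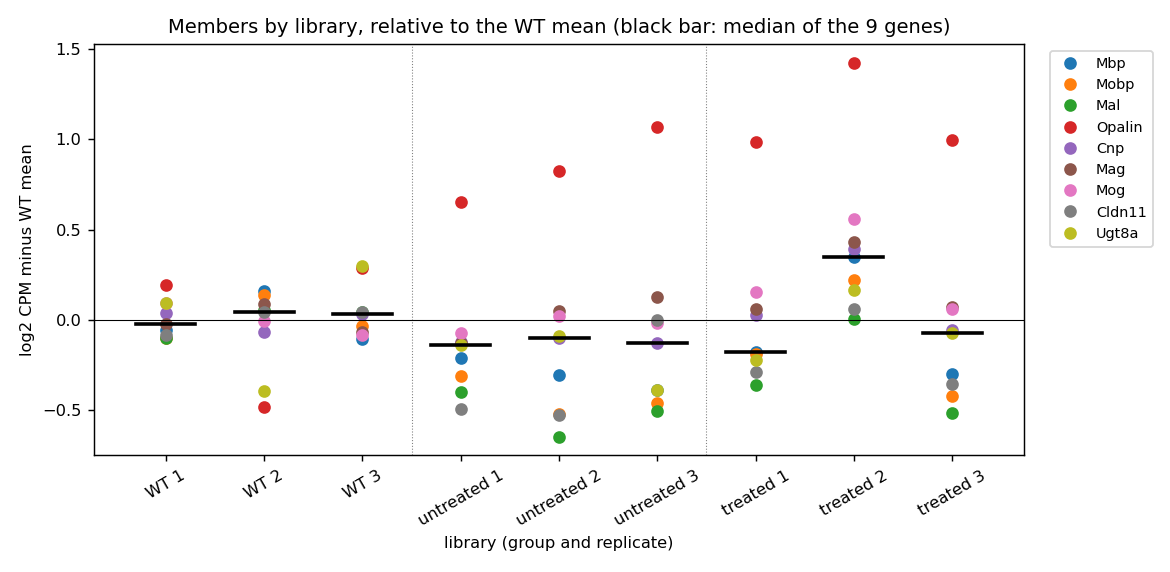
Log2 CPM of each member in each library minus its mean over the 3 WT libraries, with a black bar at the median of the 9 genes. The bar lies at 0.35 in treated 2 and between -0.18 and 0.04 in the other 8 libraries, and Opalin stands above the other members in all 6 HD libraries.

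The members did not all vary together. Across the 9 libraries Pearson's r between a member and the mean of the other 8 was 0.98 for Cnp, 0.85 for Mog, 0.73 for Mag, 0.71 for Mbp and 0.64 for Mobp, and it was 0.47 for Cldn11, 0.46 for Mal, 0.40 for Ugt8a and -0.04 for Opalin. These values describe 9 libraries that share group, tissue piece and scaling, and carry no test. The members also shifted against each other. Relative to the mean log2 CPM of the other 8 members, Opalin was 1.09 higher in untreated and 1.15 higher in treated than in WT mice, and Mal differed from WT by -0.45 in both, without overlap of either HD group with WT. Mobp differed by -0.35 in untreated and -0.27 in treated mice on this scale, also without overlap. Cldn11 differed by -0.35 and Mog by 0.16 in treated mice without overlap with WT, whereas their untreated libraries overlapped WT. No share over all genes was computed on this scale. In plain CPM, 28.6% of all genes did not overlap between treated and WT mice. For every member but Opalin the reference includes Opalin, whose rise lowers the relative value. The plain treated against WT log2 fold changes were -0.27 for Mal, -0.11 for Mobp, -0.19 for Cldn11, 0.27 for Mog and 1.11 for Opalin. Between treated and untreated mice the same relative values differed by 0.06 for Opalin and by -0.0046 for Mal. The ratio of Mal to Opalin CPM, read only between libraries because the genes may be sampled unequally, was 13.1, 23.2 and 13.4 in WT 1 to 3, 7.69, 5.76 and 5.38 in untreated 1 to 3 and 6.28, 5.95 and 5.60 in treated 1 to 3. Every HD library lay below every WT library in this ratio, treated 2 included. Both genes had passed the test in opposite directions, so this is a restatement per library and not a separate result.

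Genes with the profile most like the mean of the members over the 9 libraries, among 11097 genes with a mean log2 CPM of at least 3, were Tm4sf1 (r = 0.91), Tmem63a (0.90), Map4k4 (0.89), Pea15a (0.88) and Micall1 (0.87), followed by Wscd1, Padi2, Ttyh2, Bcas1 and Gal3st1 (0.87 to 0.84). Tmem63a, Bcas1 and Gal3st1 were on the lists of oligodendrocyte genes used here. Bcas1, a gene of newly myelinating cells, was at 263, 279 and 273 CPM in WT, 284, 285 and 269 CPM in untreated and 321, 446 and 299.9 CPM in treated mice, with treated 2 highest as for the members.

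Of 43 other genes of mature oligodendrocytes and myelin, 0 were higher in untreated than in WT mice at an adjusted p under 0.05 (edgeR's quasi-likelihood test), Efnb3 was lower, and the list's median log2 fold change was 0.06. Efnb3, which encodes ephrin-B3, was at 166, 202 and 185 CPM in WT, 126, 140.2 and 127 CPM in untreated and 160.3, 187 and 147 CPM in treated mice. Its log2 fold change was -0.49 ± 0.10 (SE; adjusted p = 0.0210), with an adjusted p of 0.0712 without WT 2, 0.0582 without untreated 1 and 0.0617 without untreated 3. In treated mice 1 gene of the list, Lpar1, a receptor for lysophosphatidic acid, passed against WT (0.54 ± 0.11, SE; adjusted p = 0.0355, edgeR's quasi-likelihood test), and of the 9 fits that left out 1 library it passed only without WT 3, untreated 1 or untreated 3, with an adjusted p of up to 0.135 (without treated 2) in the others. Between treated and untreated mice 35 of the 43 log2 fold changes were above 0, with a median of 0.16. Of all genes 46.3% were above 0, with a median of -0.01. As given above, 38 of these 43 genes were highest of the treated group in treated 2. Their list had a median log2 gap of 0.32 between treated 2 and the other treated libraries.

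Among 11 enzymes of myelin sphingolipids, the pathway in which Ugt8a acts, Fa2h, the fatty acid 2-hydroxylase that supplies hydroxylated galactolipids, was the only one called between untreated and WT mice. It was at 65.2, 68.3 and 64.4 CPM in WT, 45.9, 44.2 and 37.8 CPM in untreated and 50.5, 68.1 and 47.4 CPM in treated mice. All untreated libraries were lower, with a log2 fold change of -0.63 ± 0.13 (SE; adjusted p = 0.0211, edgeR's quasi-likelihood test), which became 0.0712 without WT 2, 0.0530 without untreated 2 and 0.0630 without untreated 3. Gal3st1, which makes sulfatide from the product of Ugt8a, had a log2 fold change of -0.04. The median of the list was -0.04, and 0 of the 11 passed in treated mice against either group.

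Of 11 transcription factors of the lineage, Zeb2, a repressor that promotes myelination, was higher in untreated than in WT mice (132 ± 9.74 against 78.6 ± 18.3 CPM, SD, n = 3; log2 fold change 0.75 ± 0.15, SE; adjusted p = 0.0153, edgeR's quasi-likelihood test), and the call held in all 9 fits that left out 1 library. Zeb2 is also expressed in microglia, whose 12 markers summed to 404 to 451 CPM in WT, 535 to 1423 CPM in untreated and 654 to 919.8 CPM in treated mice, and the part of those cells in the value was not tested. Olig1 passed in treated against WT mice (0.47 ± 0.11, SE; adjusted p = 0.0467, edgeR's quasi-likelihood test), but of the 9 such fits only without WT 2 or untreated 3, with an adjusted p of up to 0.173 (without treated 2) in the others. The medians of the list were 0.04 in untreated and 0.35 in treated mice against WT.

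Some genes of earlier stages of the lineage differed too. Of 10 genes of newly formed oligodendrocytes, Gpr17, a receptor that holds cells before maturation, was lower in untreated than in WT mice (44.9 ± 6.15 against 65.7 ± 11.7 CPM, SD, n = 3; log2 fold change -0.55 ± 0.15, SE; adjusted p = 0.0458, edgeR's quasi-likelihood test), and of the 9 fits that left out 1 library it passed only without WT 3 or untreated 3, with an adjusted p of up to 0.133 (without WT 2) in the others. Of 11 precursor genes, Cacng4 (-1.26 ± 0.14, SE; adjusted p = 0.00103, edgeR's quasi-likelihood test) and Vcan (-0.46 ± 0.11, SE; adjusted p = 0.0353) were lower and Xylt1 (0.51 ± 0.12, SE; adjusted p = 0.0278) was higher in untreated than in WT mice. Cacng4, a subunit of AMPA receptor complexes that striatal neurons also express, held in all 9 such fits. Vcan, a matrix proteoglycan, held only without WT 1, WT 2 or untreated 3, with an adjusted p of up to 0.0873 (without untreated 1) in the others, and Xylt1, a xylosyltransferase, was lost without WT 2 (0.0789), WT 3 (0.0623), untreated 2 (0.0726) or untreated 3 (0.0781). In treated against WT mice Cacng4 was the 1 precursor gene called, again lower (-0.77 ± 0.13, SE; adjusted p = 0.0164, edgeR's quasi-likelihood test). That call held in 5 of the 9 such fits. Pdgfra, the defining receptor of precursors, had a log2 fold change of -0.16 in treated against WT mice with an adjusted p of 0.393. The median of the precursor list was -0.04 in untreated and -0.11 in treated mice against WT.

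**Figure D4:**
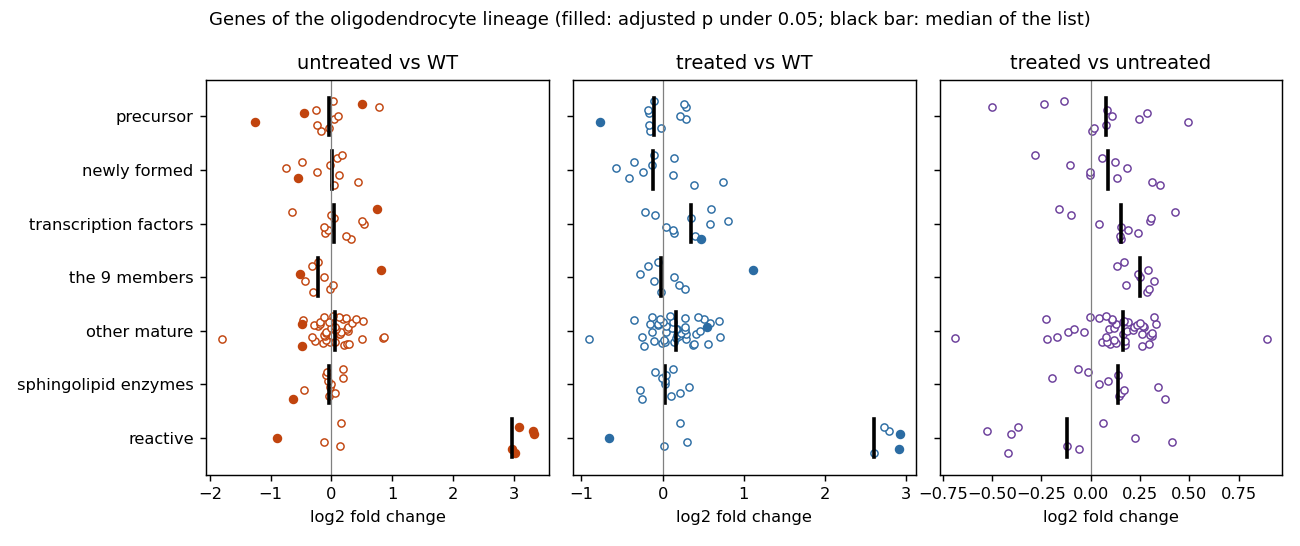
Log2 fold change of each gene of the oligodendrocyte lists in the 3 comparisons, with a black bar at the median of each list and filled points for an adjusted p under 0.05. The 9 members have medians of -0.23, -0.02 and 0.25 from left to right, and the reactive list stands far to the right in both comparisons with WT; the horizontal scales differ between panels.

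Genes that oligodendrocytes raise in a reactive state showed larger differences than the members. Of 9 such genes 5 were higher (Serpina3n, C4b, H2-D1, H2-K1 and B2m) and Sgk3 was lower in untreated than in WT mice, with a list median of 2.97 on the log2 scale. Of all tested genes, 4.58% were called higher and 6.10% lower in this comparison. In treated against WT mice 2 of the 9 were called higher (C4b and H2-D1) and Sgk3 was called lower. There 3.69% of all genes were called, 0.904% of them higher. With 1 library left out, these treated calls held in 3 of 9 fits for C4b, 2 for H2-D1 and 3 for Sgk3. C4b, a complement component, was at 45.1, 68.8 and 47.8 CPM in WT, 163, 258 and 846 CPM in untreated and 211, 375 and 629.7 CPM in treated mice. All 6 HD libraries were above WT, with a log2 fold change of 2.97 ± 0.61 (SE; adjusted p = 0.0191, edgeR's quasi-likelihood test) in untreated mice, and its adjusted p was 0.0565 without WT 2 and 0.0553 without WT 3. The 5 calls of the list became 0 without WT 2 and 1 without WT 3. Microglia and astrocytes express these 5 genes too, and untreated 3, the highest library for C4b, also had the highest microglia sum (1423 CPM), and the cell of origin was not tested. Within the untreated group Opalin rose in the same order as C4b, at 33.9, 38.1 and 45.1 CPM in untreated 1 to 3. Within the treated group the orders differed, with Opalin highest in treated 2 and C4b highest in treated 3. A link between Opalin and these genes was not tested.

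**Figure D5:**
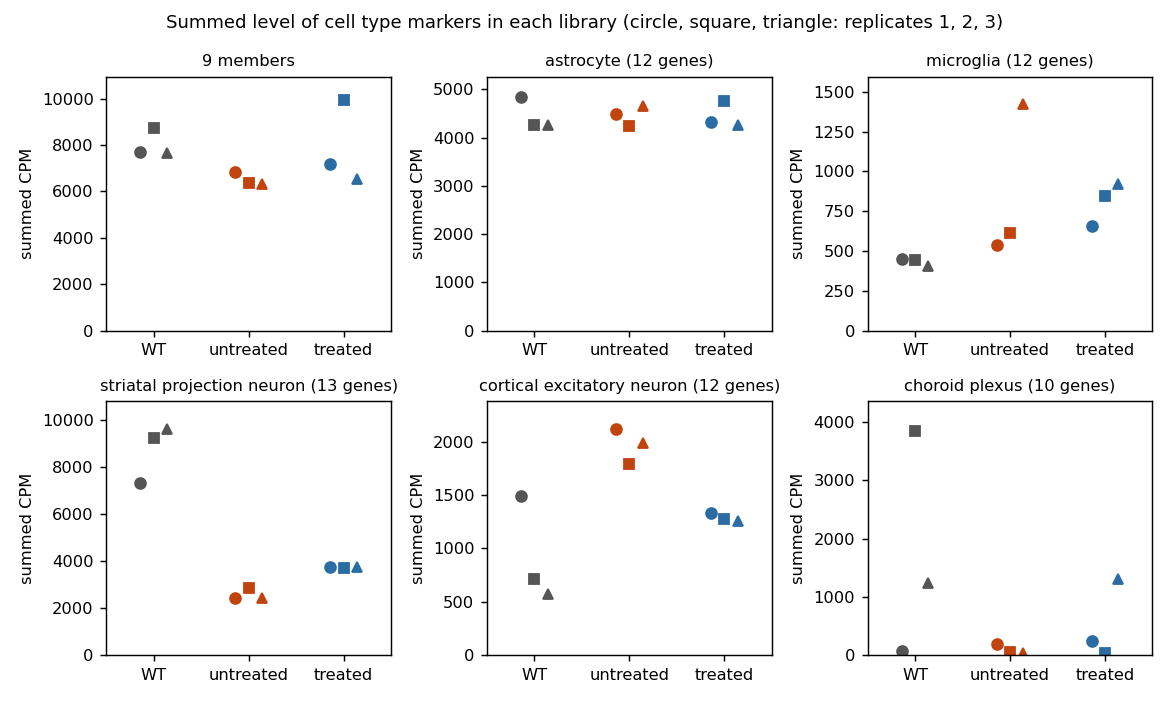
Summed CPM of the 9 members and of 5 marker lists of other cells in each library, on axes that start at 0, with circles, squares and triangles for replicates 1, 2 and 3. The member sum is 7657 to 8747 CPM in WT, 6299 to 6818 CPM in untreated and 6540.2 to 9930.4 CPM in treated mice, while the astrocyte sum, in which Slc1a2 is the most abundant gene, lies between 4241 and 4832 CPM in all libraries, although its member Gfap had means of 137, 357 and 361 CPM in WT, untreated and treated mice, and the neuronal, microglial and choroid plexus sums differ between groups or single libraries. Mbp (mean 4753 CPM in WT) and Mobp (1806 CPM) make up most of the mean WT member sum of 8034 CPM. Neither gene passed edgeR's quasi-likelihood test in any comparison.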

How the data were processed

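Striatal RNA of 9 mice, collected 1.5 months after injection, was made into 3′ oligo-dT mRNA libraries, 1 per animal, and the authors deposited raw counts per Ensembl gene. The study's methods name STAR for alignment and quantification, whereas the submitters' processing notes list Trimmomatic 0.39, FastQC 0.11.9, HISAT2 2.2.1 and featureCounts 2.0.1; the mouse genome build and the strand setting are not given in the sources used here. Pig counts were not analysed here. Some genes of the companion lists entered the counts and medians of their lists and are not reported here by name. Symbols were attached to 94.1% of identifiers, holding 99.8% of counts.

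Genes were filtered with filterByExpr and tested with edgeR 4.0.16 (R 4.3.3), quasi-likelihood fit, TMM scaling and 1 fit of all 9 libraries with 6 residual degrees of freedom. P-values were Benjamini-Hochberg adjusted over 19463 genes, and CPM used a prior count of 2 on the log2 scale only. DESeq2 1.42.0 was an alternative. The script was tested on simulated data. P-values set the difference between groups against the spread between mice, which edgeR estimated over the 3 groups and moderated across genes. Depth of 27184356 to 32102121 counts gave at least 419 counts per member, with 3 mice in each group. What limited precision was not tested. Named genes were the 9 members and, in each companion list, the 3 with the smallest P in a comparison, with the 10 genes of most similar profile. Htt was named as the targeted gene and Dnajc7 as a gene that overlaps a member. Serpina3n, B2m and, as the most abundant gene of the astrocyte list, Slc1a2 were named after their values were seen. Members and lists were chosen with earlier results of these data known. Figures were drawn with matplotlib 3.10.9.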

Additional observations from a re-analysis of the deposited data

How the results depend on the processing

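The members called between untreated and WT mice were 2, and became 0 without the filter on low counts, 1 in a fit of only the compared groups, 0 with the replicate block, 0 with the Y-linked share as a covariate, 0 at an adjusted p under 0.01 and 0 to 2 when 1 library was left out. The median log2 fold change of these groups was -0.18 without TMM factors, -0.12 with the Y-linked covariate and -0.25 to -0.10 when 1 library was left out, and stayed below 0. For treated against WT mice the 1 member called, and the 1 that met the 2-fold rule, became 0 with the Y-linked covariate and 0 to 1 when 1 library was left out, and the called member became 0 at an adjusted p under 0.01. For treated against untreated mice 0 members were called under every alternative run, and all 9 log2 fold changes stayed above 0 in the 16 alternative fits. Mal and Opalin kept their direction in all 16 alternative fits. Scaling without TMM factors moved the median of all genes from 0.02 to 0.07 in untreated and from 0.0038 to 0.06 in treated mice against WT. Replicate numbers did not pair the libraries: correlations of same-numbered deviations ran from -0.08 to 0.24 and 4 of 9 libraries correlated best with their own number. With the replicate block the adjusted p was 0.0504 for Mal and 0.0532 for Opalin in untreated mice and 0.0350 for Opalin in treated mice, by edgeR's quasi-likelihood test. The comparison relative to the other 8 members and the values without treated 2 were added after seeing the data. The causes of these changes were not tested.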

Other observations

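Of 11 genes of the node of Ranvier and paranode, the axonal gaps that oligodendrocyte myelin borders, Cntnap1 was lower than WT in untreated and treated mice, at an adjusted p under 0.05 by edgeR's quasi-likelihood test. Cntnap1, the axonal partner of the paranodal myelin loops, was at 355, 368 and 313 CPM in WT, 279, 273 and 232 CPM in untreated and 248, 240.0 and 239.5 CPM in treated mice. No library of either HD group reached the WT range. The log2 fold changes were -0.40 ± 0.09 (SE; adjusted p = 0.0249) in untreated and -0.51 ± 0.09 (SE; adjusted p = 0.0179) in treated mice. The first call was lost without WT 2 (0.0767), untreated 2 (0.0521), untreated 3 (0.0654) or treated 1 (0.0509), and the second without WT 2 (0.0632), treated 1 (0.0774), treated 2 (0.102) or treated 3 (0.0926). Neurons make these transcripts, 13 of 13 striatal projection neuron markers were lower than WT in untreated and 9 of 13 in treated mice, and their part in the result was not tested.

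Of 8 genes of peripheral (Schwann cell) myelin, 6 passed the filter and Egr2, which is also an activity-regulated gene of neurons, was lower in untreated than in WT mice (log2 fold change -1.44 ± 0.25, SE; adjusted p = 0.00932, edgeR's quasi-likelihood test), in all 9 fits that left out 1 library. Egr2 was also lower in treated than in WT mice (-1.27 ± 0.25, SE; adjusted p = 0.0260, same test), in 5 of the 9 such fits. Of 10 endothelial markers, 2 were higher than WT in both HD groups, Cldn5 and Tek. Cldn5, the claudin of the blood-brain barrier, had log2 fold changes of 0.79 ± 0.13 in untreated and 0.94 ± 0.13 (SE) in treated mice, and its calls held in all 9 such fits. The calls of Tek held in 3 of the 9 in untreated mice (without WT 3, untreated 1 or treated 2) and in 2 of the 9 in treated mice (without WT 3 or untreated 3), with adjusted p-values of up to 0.0910 (without untreated 3) and 0.158 (without treated 2). Of 12 astrocyte markers, 1 was lower in untreated mice (Slc4a4) and 1 was higher in treated mice (S100b, which mature oligodendrocytes also express). The Slc4a4 call held in all 9 such fits, and the S100b call in 3, without WT 3, untreated 1 or untreated 3, with an adjusted p of up to 0.141 (without treated 2) in the others. Gfap, an intermediate filament of reactive astrocytes, was at 143, 180.1 and 86.2 CPM in WT, 231, 264 and 575 CPM in untreated and 238, 477 and 369 CPM in treated mice. All 6 HD libraries lay above all WT libraries, and the log2 fold changes against WT were 1.39 ± 0.40 (SE; adjusted p = 0.0546) and 1.40 ± 0.40 (SE; adjusted p = 0.0838) by edgeR's quasi-likelihood test, which met the 2-fold rule at an unadjusted P under 0.05 but not the adjusted threshold.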
